A study of Mus musculus with 19 samples.

Results

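The transcripts described are those of 5 genes of granulocyte-monocyte progenitors and promyelocytes, Mpo, Elane, Prtn3, Ctsg and Ms4a3, of 16842 gene symbols listed in any of the deposited count tables of mouse bone marrow. They were chosen by symbol and not by a measured value, though with earlier results of these data known. All 5 were listed and passed the filter on low counts in every comparison. The 19 RNA-seq libraries fall into 6 groups of animals labelled Asxl1 mutant (MT) or wild type (WT). Myeloid cells carrying Cd11b came from animals 4 months old (young, 3 MT and 4 WT libraries) and 18 months old (old, 3 MT and 3 WT). LK cells, the lineage-negative marrow fraction that carries Kit and holds stem and progenitor cells, came from animals 18 months old (3 MT and 3 WT). The labels do not give the mutant allele, the strain, the sex or whether the replicates of a group are separate animals, so the p-values measure the spread between these libraries only, which may be technical. In bulk libraries, fewer cells of a type and less RNA per cell cannot be told apart.

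Primary (azurophil) granules are the first granules a neutrophil precursor makes, and their proteins are transcribed in a short window that opens in granulocyte-monocyte progenitors and closes as promyelocytes mature. The proteins stay in the granules after their transcripts have gone, so a mature neutrophil holds the enzymes but little of their RNA. Mpo encodes myeloperoxidase, the heme enzyme that makes hypochlorous acid. Elane, Prtn3 and Ctsg encode the serine proteases neutrophil elastase, proteinase 3 and cathepsin G, which digest microbial and matrix proteins. Ms4a3 encodes a membrane-spanning protein of the same progenitors and is not a granule enzyme. Transcription factors of the PU.1, CEBP, RUNX and MYB families are known regulators of such promoters.

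Elane and Prtn3 lie on chromosome 10 in the same orientation, 3073 bp apart, at chr10:79886247-79888215 and chr10:79874476-79883174 on the plus strand (GENCODE M21, GRCm38, the build named mm10). Mpo is at chr11:87793581-87804413 on the plus strand, Ctsg at chr14:56099881-56102574 on the minus strand and Ms4a3 at chr19:11629496-11640851 on the minus strand. All 5 are protein-coding, and their exonic lengths were 2904 nt for Mpo and 984 to 1025 nt for the other genes. Mpo overlaps an antisense gene, Gm11505, and Prtn3 overlaps Plppr3 on the opposite strand. Whether the counting used strand is not given in the sources used here. The upstream sequences of 4 of the 5 genes are shown, those in which the short word GAGGAA lies before the start. They are from RefSeq windows of GRCm38.p6 that run from 250 bases before to 50 bases after each start, and are read 5′ to 3′ along the gene's strand. Each was cut to bases before the start that no GENCODE exon covers, and then to at most 100 bases that hold a GAGGAA match. Between the stretch and the RefSeq start lie 203 bases for Mpo, 65 for Elane, 53 for Prtn3 and 146 for Ctsg. Matches outside a stretch are not shown in its line. The RefSeq start of Prtn3, at 79879667, and its stretch lie inside the GENCODE span given above. Capitals mark matches on either strand to 1 of 5 words. The word GAGGAA is a core of PU.1 sites. The word searched for the CEBP family was TTGCNNAA, with N for any base. For RUNX factors the word was TGTGGT. For MYB factors it was the short and frequent AACNG, and for the TATA box it was TATAAA.
Mpo, chr11:87793534-87793580, plus strand: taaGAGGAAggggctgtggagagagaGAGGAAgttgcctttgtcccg
Elane, chr10:79886147-79886246, plus strand: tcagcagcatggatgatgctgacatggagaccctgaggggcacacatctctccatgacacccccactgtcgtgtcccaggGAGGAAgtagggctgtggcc
Prtn3, chr10:79879514-79879613, plus strand: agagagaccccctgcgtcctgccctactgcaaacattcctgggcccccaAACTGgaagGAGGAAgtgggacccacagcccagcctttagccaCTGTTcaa
Ctsg, chr14:56102721-56102820, minus strand: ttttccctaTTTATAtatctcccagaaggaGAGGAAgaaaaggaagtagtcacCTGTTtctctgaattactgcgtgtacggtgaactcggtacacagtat

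The word GAGGAA was present in the 300-base window of all 5 genes, in the given orientation each time. Its first base lies at -247 and -224 from the RefSeq start of Mpo, -85 of Elane, -95 of Prtn3, -216 of Ctsg and 36 bases into Ms4a3. Of all 32851 windows of the same length, 28.3% held it on either strand. The match at -224 of Mpo and those of Elane and Prtn3 are followed by the letters gt, as the lines above show. MYB-type matches were found in the windows of Mpo, Elane, Prtn3 and Ctsg, but 80.3% of all windows hold one. A RUNX-type match was found in Ctsg only, at -79 (16.8% of all windows), and a CEBP-type match in Ms4a3 only, 42 bases after the start (10.8%). The TATA word of Ctsg lies at -237, and 13.6% of all windows hold one. These are letter matches and not measured sites.

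Gene counts summed to between 26251822 and 38347903 in the young libraries, 41909460 and 68260809 in the old and 31853263 and 59882448 in the LK libraries. Levels are given as scaled CPM, that is CPM after TMM factors were computed over all 19 libraries. The sorting markers followed the labels. Mean Itgam, which encodes Cd11b, was at 1637 to 3344 scaled CPM in the 4 Cd11b groups and at 49.6 and 72.2 in LK WT and MT, and mean Kit was at 63.1 to 109 in the Cd11b groups and at 211 and 179.6 in LK WT and MT. Asxl1 itself was read in every library, at 202 to 236 scaled CPM in the young, 279 to 305 in the old and 92.2 to 117 in the LK libraries, a level that does not check the genotype because the allele is not given. Young MT replicate 3 and young WT replicate 4 had 3022 and 2854 counts of the Y-linked gene Ddx3y and at most 8 of Xist, whereas the other 5 young libraries had at most 1 count of Ddx3y. In each 18-month group replicates 2 and 3 were nearer to each other than to replicate 1 (chi-square per degree of freedom 3.02 to 6.74, against 14.6 to 47.6 for pairs with replicate 1), and were kept as separate samples.

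The 5 genes were highest in LK cells, intermediate in young Cd11b cells and lowest in old Cd11b cells, with the exception of Ms4a3, whose young and old ranges overlapped. Together they took 1.56 to 2.03% of all gene counts in LK libraries, 0.380 to 0.682% in young Cd11b libraries and 0.100 to 0.142% in old Cd11b libraries. In LK cells MT replicates 2 and 3 were above all WT libraries for each gene, and in Cd11b cells most MT libraries were below most WT libraries.

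**Figure D1:**
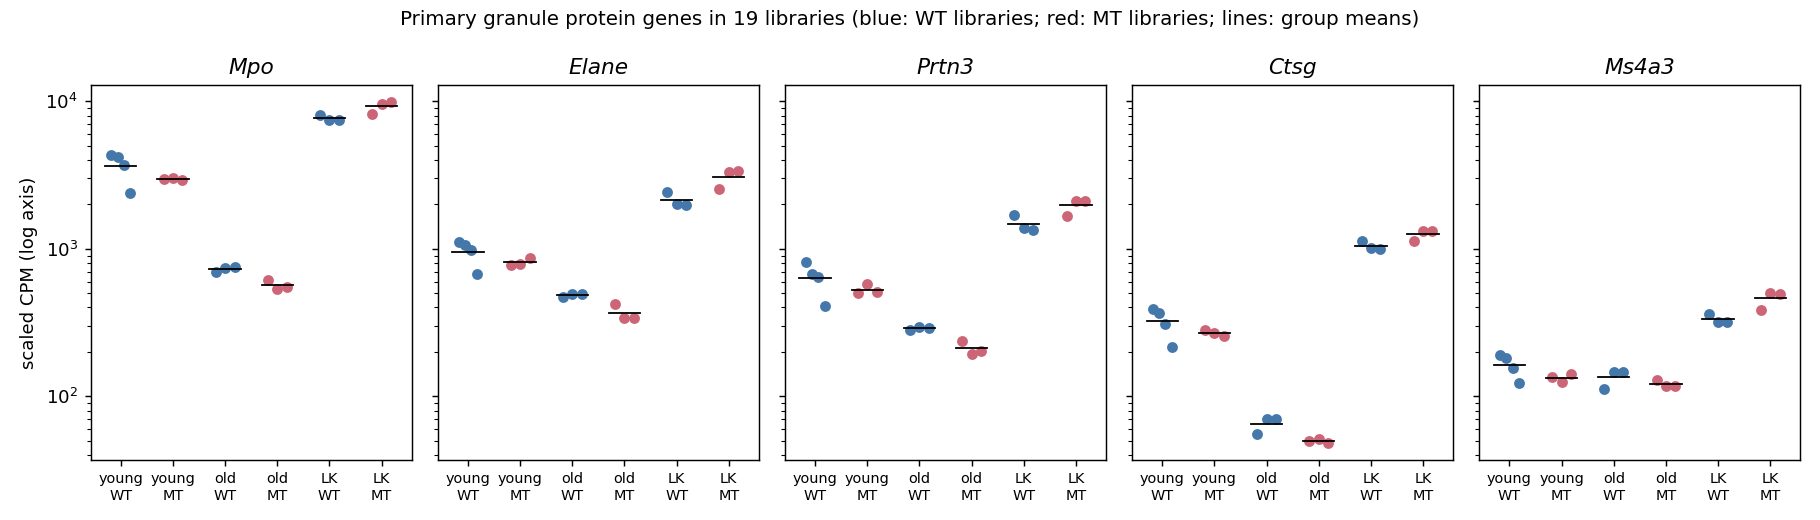
Scaled CPM (log axis) of each of the 5 genes in the 19 libraries, by group, with points for libraries (blue WT, red MT) and a line at each group mean. Mpo runs from 536 to 748 scaled CPM in the old Cd11b libraries and from 7480.0 to 9912 in the LK libraries. The lowest young WT point in every panel is replicate 4.

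Mpo, the peroxidase, was the most abundant of the 5 transcripts by count in every library. In LK cells it stood at 8141, 7502 and 7480.0 scaled CPM in WT replicates 1 to 3 and at 8156, 9669.8 and 9912 in MT. MT replicate 1 was level with WT replicate 1, and MT replicates 2 and 3 lay above all WT libraries. The old Cd11b values were 693, 741 and 748 in WT and 616, 536 and 554 in MT, so that the highest MT library lay below the lowest WT library. The young Cd11b values were 4319, 4167, 3719.7 and 2397 in WT and 2986, 3014 and 2952 in MT. The MT values lay close together, below 3 WT libraries and above WT replicate 4.

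Elane, the elastase gene, was measured in LK cells at 2448, 2012 and 1981 scaled CPM in WT and at 2545, 3305 and 3352 in MT. All 3 MT libraries were above all 3 WT libraries, MT replicate 1 by the least. Elane in old Cd11b cells was at 472, 496 and 493 in WT and at 424, 341 and 341 in MT, without overlap. Among young Cd11b libraries it was at 1115, 1059, 978 and 679 in WT and at 776, 785 and 866 in MT. Again WT replicate 4 was the lowest young library and the other 3 WT libraries lay above MT.

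Prtn3, the proteinase 3 gene next to Elane, was at 1684, 1388 and 1349 scaled CPM in LK WT and at 1677, 2116 and 2117 in LK MT. Here MT replicate 1 fell just under WT replicate 1, so the groups overlapped. Prtn3 in old Cd11b cells was at 281, 297 and 292 in WT and at 238, 195 and 204 in MT, without overlap. The young Cd11b values were 815, 675, 648 and 407 in WT and 504, 575 and 507 in MT.

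Ctsg, the cathepsin G gene, had the widest span between cell sets. It was at 1132, 1010.3 and 992 scaled CPM in LK WT and at 1127, 1319.5 and 1325 in LK MT, with MT replicate 1 just under WT replicate 1. Old Cd11b cells had 55.8, 69.9 and 69.6 in WT and 49.5, 51.6 and 48.4 in MT. The MT libraries were the lower ones without overlap, although WT replicate 1 came near them. In young Cd11b cells it was at 392, 368, 309.6 and 216 in WT and at 280.0, 268 and 257 in MT.

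Ms4a3, the membrane protein gene, had the narrowest span. It was at 362, 318 and 318 scaled CPM in LK WT and at 383, 504 and 496 in LK MT, without overlap. In old Cd11b cells it was at 112, 145 and 147 in WT and at 129, 118 and 117 in MT. WT replicate 1 was the lowest old library of all, so these groups overlapped. In young Cd11b cells the values were 189, 183, 154 and 123 in WT and 134, 125 and 141 in MT, close to those of the old cells.

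In LK cells, all 5 genes were higher in MT than in WT. The largest difference was that of Elane, with a log2 fold change of 0.49 ± 0.11 (SE, n = 3 and 3, edgeR quasi-likelihood test, adjusted p = 0.0155), followed by Ms4a3 at 0.44 ± 0.09 (adjusted p = 0.0140) and Prtn3 at 0.39 ± 0.10 (adjusted p = 0.0241). Ctsg and Mpo differed less, by 0.24 ± 0.06 (adjusted p = 0.0280) and 0.23 ± 0.07 (adjusted p = 0.0379). The count of 5 of 5 stands against a background in which 29.8% of the 14113 genes tested were called at an adjusted p under 0.05. Of all genes tested, 13.9% were called as higher in MT. Mpo, Elane and Ms4a3 had no overlap between the groups, as had 22.3% of all genes tested in the higher direction. The median log2 fold change was 0.39 over the 5 genes and 0.02 over all genes tested. The direction held in each of 14 alternatives, but the calls did not: none of the 5 was called after leaving out any one of MT replicate 2, MT replicate 3, WT replicate 2 or WT replicate 3, and none when replicates 2 and 3 were summed to 1 library.

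Transcript length moved with the LK genotype difference. Across 13738 genes, Spearman's rho between the log2 fold change and the exonic length was -0.48, a description over genes that share the same 6 libraries, and of the 384 genes of 900 to 1100 nt, the length of Elane, Prtn3, Ctsg and Ms4a3, 86.2% were positive with a median of 0.22. With each library's trend on length and GC content removed, Mpo alone was called (0.22 ± 0.05, adjusted p = 0.0307), Elane was at 0.26 ± 0.08 (adjusted p = 0.0668), Ms4a3 at 0.23 ± 0.08 (adjusted p = 0.0801), Prtn3 at 0.16 ± 0.07 (adjusted p = 0.133) and Ctsg at 0.02 ± 0.04 (adjusted p = 0.745).

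In old Cd11b cells, all 5 estimates were lower in MT, and none was called in a set where 0.336% of 13398 genes were called (45 genes, of which 28 lower, and 2230 at an unadjusted p under 0.05). Prtn3 was at a log2 fold change of -0.45 ± 0.08 (SE, n = 3 and 3, edgeR, adjusted p = 0.0608), Elane at -0.40 ± 0.09 (adjusted p = 0.0943), Ctsg at -0.39 ± 0.09 (adjusted p = 0.0917) and Mpo at -0.36 ± 0.06 (adjusted p = 0.0620). Ms4a3 was at -0.16 ± 0.11 (adjusted p = 0.508). Mpo, Elane, Prtn3 and Ctsg had no overlap between the groups, a pattern in the lower direction that 11.4% of all genes tested also had. The median was -0.39 over the 5 genes and 0.00 over all genes. Spearman's rho between the log2 fold change and the exonic length was 0.20 here. Of the 348 genes of 900 to 1100 nt, 30.7% were positive (median -0.06). The calls here depended on the tool and on replicate 1, and so did the number of genes called in all. DESeq2 called 4 of the 5 (and 515 genes in all). Leaving out MT replicate 1 gave Mpo, Elane and Prtn3, with 310 of 13559 genes called. Leaving out WT replicate 1 gave Mpo, Ctsg and Ms4a3, with 1819 of 13663 genes called.

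In young Cd11b cells, none of the 5 genes was called, and neither was any of the 13755 genes tested (0%, with 444 at an unadjusted p under 0.05 and 19 called by DESeq2). The estimates were all negative, from -0.24 ± 0.15 for Elane to -0.29 ± 0.18 for Mpo (SE, n = 3 MT and 4 WT, edgeR, adjusted p = 0.999 for each). The estimate of Ms4a3, -0.29 ± 0.13, had the lowest unadjusted p of the 5 (0.0584). Without WT replicate 4, Mpo was at -0.45 ± 0.08 (adjusted p = 0.165), and none was called. Without WT replicate 1 the median of the 5 estimates was -0.16 and Prtn3 was at -0.12 ± 0.18, also with none called. A fit of the 5 young libraries that share the Xist pattern (MT replicates 1 and 2, WT replicates 1 to 3) was added after seeing the data. In that fit Elane was at -0.43 ± 0.07 (adjusted p = 0.0297) and Mpo at -0.44 ± 0.08 (adjusted p = 0.0496). Both were called, among 69 of 13874 genes. The Ddx3y pattern left 1 library per genotype and no test, and there each of the 5 genes was higher in MT replicate 3 than in WT replicate 4 (Mpo 2952 against 2397 scaled CPM).

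**Figure D2:**
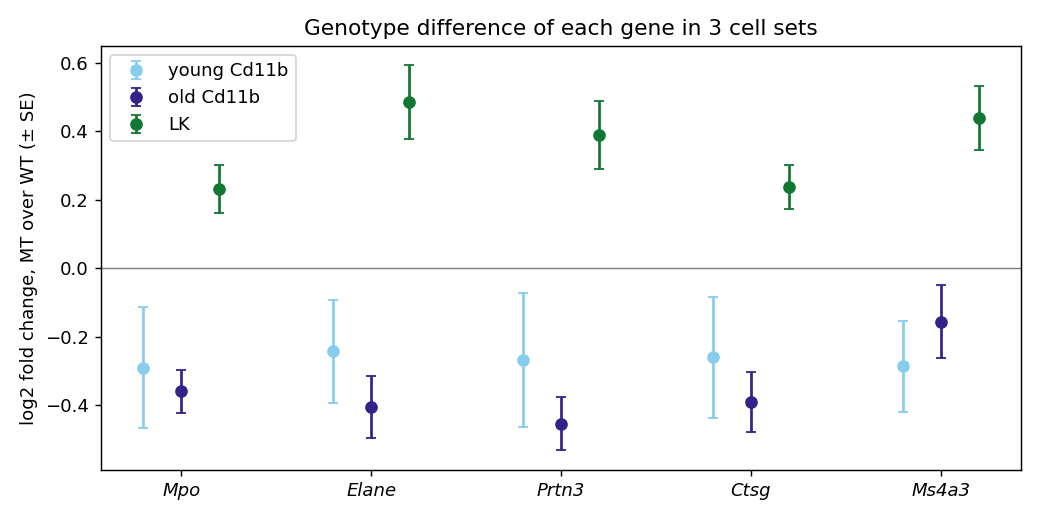
Log2 fold change of MT over WT (vertical axis, points with SE bars) for each gene in young Cd11b, old Cd11b and LK cells. The LK points lie between 0.23 and 0.49, and all Cd11b points lie below 0, between -0.16 and -0.45.

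The genotype difference of the 5 genes differed between LK cells and Cd11b cells of the same age. In an interaction fit of the 12 libraries of 18 months, which are those of the LK and old genotype comparisons, the difference was taken as LK minus old Cd11b. There, 5 of 5 were called as higher, where 20.7% of 13996 genes were called and 8.79% as higher (1230 higher and 1674 lower, or 913 and 2194 with library totals in place of TMM factors, under which the 5 were called as well). The interaction was 0.88 ± 0.15 on the log2 scale for Elane (edgeR, adjusted p = 0.00610), 0.84 ± 0.14 for Prtn3 (adjusted p = 0.00610), 0.62 ± 0.12 for Ctsg (adjusted p = 0.00726), 0.59 ± 0.15 for Ms4a3 (adjusted p = 0.0220) and 0.58 ± 0.11 for Mpo (adjusted p = 0.00664). At least 4 of the 5 were called when any 1 of the 12 libraries was left out, and none was called when replicates 2 and 3 were summed (adjusted p from 0.363 to 0.428). Ms4a3 was the least stable, called in 10 of 20 alternatives. Mpo and Ctsg were called in 18 and Elane and Prtn3 in 19. Spearman's rho between the interaction and the exonic length was -0.47 across genes. Of the 374 genes of 900 to 1100 nt, 84.2% had a positive interaction (median 0.29). After removal of the trend on length and GC content, Mpo, Elane, Prtn3 and Ctsg were called, at 0.37 to 0.60, and Ms4a3 was at 0.37 (adjusted p = 0.0543). Between old and young Cd11b cells the genotype differences of the 5 genes were not told apart: the interactions ran from -0.19 ± 0.25 for Prtn3 to 0.13 ± 0.19 for Ms4a3, none was called by edgeR, and 0.0214% of 14024 genes were called (1035 at an unadjusted p under 0.05, 63 called by DESeq2).

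The mixture of the 5 transcripts differed between cell sets. Mpo made up 62.5 to 64.6% of their summed counts in young Cd11b libraries, 57.2 to 61.7% in LK libraries and 42.2 to 43.8% in old Cd11b libraries. Elane took 16.3 to 18.3% in young, 16.3 to 19.5% in LK and 26.98 to 29.2% in old libraries, and Ms4a3 took 2.62 to 3.23%, 2.60 to 2.98% and 6.93 to 9.49%. Between young genotypes the ranges of all 5 shares overlapped. Between old genotypes the share of Prtn3 was 16.7 to 17.4% in WT and 15.7 to 16.4% in MT and that of Ms4a3 6.93 to 8.40% and 8.86 to 9.49%, both without overlap, and the other 3 overlapped. Between LK genotypes the mixture shifted slightly: the share of Mpo was 59.1 to 61.7% in WT and 57.2 to 58.7% in MT, that of Elane 16.3 to 17.8% and 18.3 to 19.5%, and that of Ctsg 8.19 to 8.26% and 7.70 to 8.11%, none of them overlapping. The share of Ms4a3, 2.60 to 2.63% in WT and 2.76 to 2.98% in MT, did not overlap either, and that of Prtn3 did. The 5 shares of a library add up to the whole, so these separations depend on each other. A background for shares was not computed. In scaled CPM, 22.3% of all genes tested had no overlap in the higher direction in LK cells. In old Cd11b cells 11.4% had none in the lower direction. Counts of Mpo per count of Elane were 3.33 to 3.78 in LK WT and 2.93 to 3.20 in LK MT. Mpo, at 2904 nt of exon, is the longest of the 5. Shorter genes tended to larger LK log2 fold changes (Spearman's rho -0.48 across genes), and the part of length in these LK shares was not tested.

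**Figure D3:**
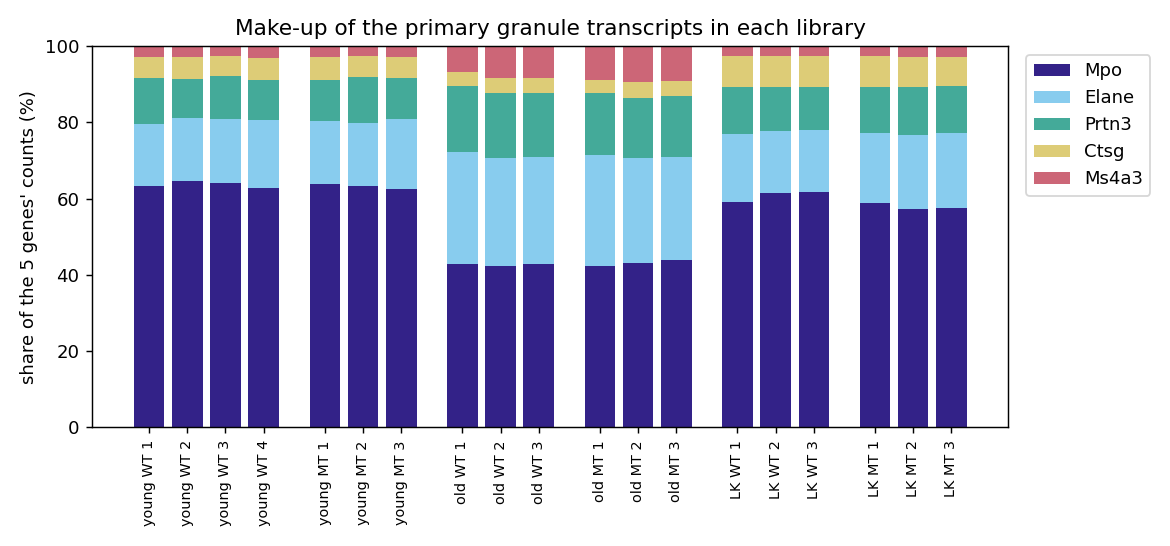
Share of each gene in the summed counts of the 5 genes (vertical axis, percent), 1 bar per library, grouped by cell set and genotype. The Mpo part is near 43% in all 6 old Cd11b bars and above 57% in all others.

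Per kilobase of exon, which allows genes to be compared, the order in LK WT was Mpo at 2654 ± 129 scaled CPM per kb (SD, n = 3), Elane at 2182 ± 265, Prtn3 at 1438 ± 179, Ctsg at 1043 ± 75.8 and Ms4a3 at 329 ± 25.3, with no overlap between neighbours in the order. In LK MT the top pair was not separated, since Elane at 3117 ± 460.1 overlapped Mpo at 3184 ± 328. The order in young Cd11b WT was the same as in LK WT and held within each of the 4 libraries, although between libraries the range of Elane (973 ± 198) overlapped those of Mpo (1257 ± 301) and Prtn3 (621 ± 165). In old Cd11b WT the order was another one, with Elane at 495 ± 13.3, Prtn3 at 283 ± 7.67, Mpo at 250.5 ± 10.3, Ms4a3 at 133 ± 19.6 and Ctsg at 65.0 ± 8.02. Old MT had this order as well, with overlap between Prtn3 (207 ± 22.5) and Mpo (196 ± 14.3).

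Against Cd11b cells of the same age and genotype, LK WT cells had more of all 5 transcripts. The log2 fold change was 3.91 ± 0.10 for Ctsg (SE, n = 3 and 3, edgeR, adjusted p = 3.5e-09), 3.31 ± 0.07 for Mpo (adjusted p = 1.1e-09), 2.25 ± 0.08 for Prtn3 (adjusted p = 2.2e-08), 2.04 ± 0.08 for Elane (adjusted p = 3.7e-08) and 1.21 ± 0.10 for Ms4a3 (adjusted p = 6.6e-06). In this contrast 86.8% of 13710 genes were called, 45.1% as higher in LK, so the sizes say more than the count. Size depended on scaling: with library totals in place of TMM factors the median of all genes moved from 0.08 to 0.81, the split of calls from 6188 higher and 5713 lower to 8477 and 3746, and the 5 genes to between 1.94 and 4.64. After removal of the trend on length and GC content, Ms4a3 was at 0.58 ± 0.06 and Elane at 1.61 ± 0.05, and all 5 were called. The median of the 5 was 2.25 and that of 17 secondary granule and mature neutrophil genes was -8.43, all 17 being lower in LK, with Ltf (lactoferrin, -12.08 ± 0.95), Mmp9 (-11.51 ± 0.64), Mmp8 (-10.16 ± 0.21) and Lcn2 (-10.03 ± 0.30) at the largest distances. The list of 19 other progenitor and promyelocyte genes did not follow the 5 either, with 5 higher and 12 lower in LK (median -2.29). Of 17 tested genes of granule contents and packing, 5 were higher and 11 lower. Lyz1 and Lyz2, the lysozyme genes, were lower by the most (-7.06 ± 0.30 and -5.90 ± 0.14), whereas Cst7, which encodes the protease inhibitor cystatin F, was higher at 2.75 ± 0.08.

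Old WT Cd11b cells had less of the peroxidase and protease transcripts than young WT Cd11b cells. Mpo was at -2.35 ± 0.19 on the log2 scale (SE, n = 3 old and 4 young, edgeR, adjusted p = 2.7e-06), Ctsg at -2.32 ± 0.21 (adjusted p = 1.4e-05), Prtn3 at -1.15 ± 0.20 (adjusted p = 0.000679) and Elane at -0.99 ± 0.15 (adjusted p = 0.000166). Ms4a3 was at -0.29 ± 0.15 (adjusted p = 0.115), and was called without young WT replicate 4 (-0.40 ± 0.12, adjusted p = 0.0142). Ddx3y was read in all 3 old WT libraries, at 76.0 to 76.7 scaled CPM, and in 1 of the 4 young WT libraries, replicate 4, whereas the other 3 had the Xist pattern. With a covariate for that pattern, Mpo was at -1.74 ± 0.10, Ctsg at -1.75 ± 0.15, Elane at -0.50 ± 0.09 (adjusted p = 0.000819) and Prtn3 at -0.51 ± 0.12 (adjusted p = 0.00349), all 4 called, and Ms4a3 at 0.11 ± 0.17 (adjusted p = 0.611). The 4 of 5 called stand against 73.1% of 13719 genes called, 36.9% as lower in old cells. Spearman's rho between the log2 fold change and the exonic length was -0.27. Of the 353 genes of 900 to 1100 nt, 64.6% were positive (median 0.35). With the trend on length and GC content removed, the median of the 5 genes moved from -1.15 to -1.49. With library totals the median of all genes moved from -0.02 to -0.28, the split of calls from 4959 higher and 5068 lower to 3282 and 6777, and Ms4a3 to -0.55 ± 0.15, which was called (adjusted p = 0.00746). Markers of other lineages moved in the same comparison. The 6 basophil and mast cell markers summed to 310.5 to 376 scaled CPM in young WT and 24.7 to 44.7 in old WT, all 6 lower in old cells. The 3 tested eosinophil markers summed to 1393 to 1838 in young WT and 61.7 to 127 in old WT, all 3 lower. Secondary granule and mature neutrophil genes rose, 16 of 17, from a sum of 54866 to 69194 in young WT to 173573 to 206578 in old WT. The list of 19 other progenitor and promyelocyte genes did not follow the 5, with 12 higher and 6 lower in old cells (median 0.63). The ribosomal RNA precursor Rn45s, at a mean of 85369 scaled CPM in young WT and 738 in old WT, also differed. The part of these in the result was not tested, and the ages may have been processed separately, so age and processing cannot be told apart. Age and the sex-linked pattern are separated by 1 young WT library alone.

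In LK cells, the genes around the granule pathway were described with lists of other granule proteins, progenitor genes and markers. The counts of calls stand against 13.9% of all 14113 genes tested called as higher in MT and 15.9% as lower. In all, 4206 genes were called. Leaving out replicate 2 or 3 of either genotype left 981 to 1185 called, and summing those replicates left 3. The lists were counted in the main fit only, without removal of the length trend. Of 17 tested genes of granule contents and packing, 8 were higher in MT and none lower (median 0.31). Among them were Cd63, a granule membrane tetraspanin (0.63 ± 0.12, adjusted p = 0.0114), Hexa, a lysosomal enzyme gene (0.39 ± 0.06, adjusted p = 0.00755), and Serpinb1a, an inhibitor of elastase and cathepsin G (0.36 ± 0.09, adjusted p = 0.0196). Ctsc, the peptidase that activates the granule proteases, named after its value was seen, was at -0.08 and not called. Of 19 progenitor and promyelocyte genes, 10 were higher and 3 lower. Fcnb, a ficolin of the promyelocyte stage, was at 1.29 ± 0.30 (adjusted p = 0.0324) and Cebpe, the factor of late granulocyte differentiation, at 0.87 ± 0.23 (adjusted p = 0.0362), before Nkg7 at 0.42 ± 0.10 and Clec12a at 0.41 ± 0.09. The 3 lower genes, named after their values were seen, were Csf2rb (-0.26), Csf1r (-0.24) and Irf8 (-0.23), the latter pair genes of the monocyte branch. Of 4 tested protease inhibitors 3 were higher, Serpinb1a, Serpinb6a (0.33 ± 0.09) and Slpi (0.27 ± 0.05). In old and young Cd11b cells no gene of these lists was called by edgeR between genotypes.

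**Figure D4:**
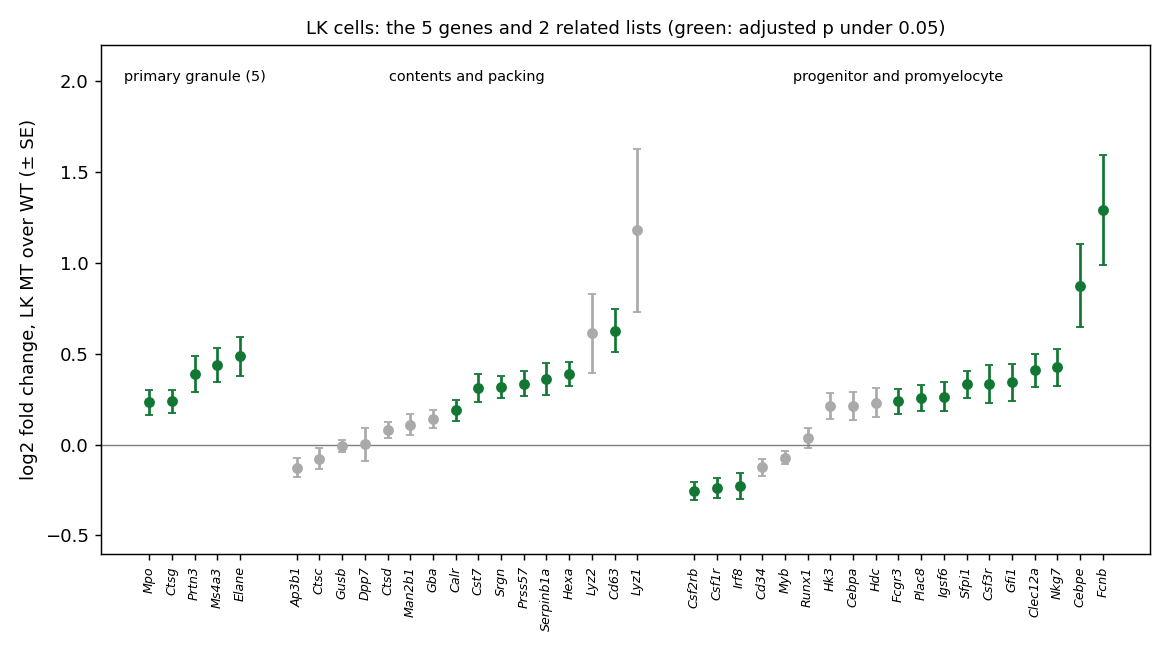
Log2 fold change of LK MT over WT (vertical axis, points with SE bars) for the 5 genes, 16 of the 17 tested genes of granule contents and packing and 19 progenitor and promyelocyte genes, green where the adjusted p is under 0.05. All 5 genes lie above 0, as do the 7 called genes shown of the first list, while 3 called genes of the second lie below 0.

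Markers of maturer neutrophils moved with the 5 genes in LK cells. Over all genes tested there, 13.9% were called as higher in MT and 15.9% as lower. These markers too were counted in the main fit only, whose calls depended on replicates 2 and 3. All 17 secondary granule and mature neutrophil genes had positive estimates (median 1.89) and 4 were called, Olfm4 (2.53 ± 0.41), Itgb2l (1.89 ± 0.53), S100a8 (1.74 ± 0.45) and Csf3r (0.33 ± 0.10). Their summed level was 601 to 1151 scaled CPM in WT and 1246 to 4159 in MT, and none of the 17 was at 0 in either group. The LK libraries fell into the same 3 pairs for both sums: WT replicates 2 and 3 were low, both replicates 1 were in the middle (13767 scaled CPM of the 5 genes in WT and 13888 in MT), and MT replicates 2 and 3 were high (16914 and 17202). The 7 monocyte and macrophage markers summed to 869 to 1025 in WT and 1054 to 1183 in MT, with 2 called higher (Vcam1, Ly6c2) and 3 lower (Ccr2, Csf1r, Irf8). The 6 basophil and mast cell markers summed to 251.5 to 273 in WT and 231 to 239.8 in MT, with 4 lower (Ms4a2 at -0.98 ± 0.16, Cpa3 at -0.36 ± 0.09, Prss34 at -0.34 ± 0.05 and Mcpt8 at -0.25 ± 0.06). Kit was lower in MT (-0.26 ± 0.08, adjusted p = 0.0362). The 6 tested erythroid markers summed to 1856 to 1916 in WT and 1667 to 1728 in MT, all 6 with negative estimates and 1 called (Car1 at -0.23 ± 0.04). The 5 megakaryocyte markers all had positive estimates, with 1 called (Pf4 at 0.56 ± 0.17), and the 5 stem cell markers did too, with none called. MT replicate 1 stood apart in both sums, at 408 for megakaryocyte markers against 217 to 275 in the other LK libraries, and at 92.6 for stem cell markers against 51.9 to 63.7. The part of these marker changes in the rise of the 5 genes was not tested.

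**Figure D5:**
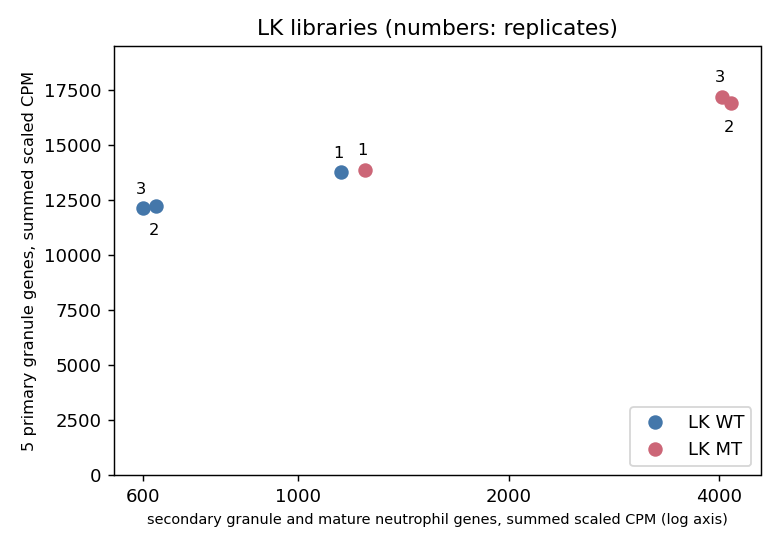
Summed scaled CPM of the 5 genes (vertical axis) against that of 17 secondary granule and mature neutrophil genes (horizontal log axis) in the 6 LK libraries, numbered by replicate. MT replicate 1 (13888, 1246) lies beside WT replicate 1 (13767, 1151), and MT replicates 2 and 3 lie apart at the upper right.

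Genes next to the 5 did not all follow them in LK cells. Of 19 tested neighbours and family members 3 were higher in MT and 4 lower, where 13.9% of all genes tested were higher and 15.9% lower. This count is also from the main fit only. Prss57, a serine protease gene of the Elane cluster, was higher at 0.34 ± 0.07 (adjusted p = 0.0116) and Cnn2 at 0.33 ± 0.09, whereas Med16, just beyond Elane and Cfd, was lower at -0.24 ± 0.05 and Polrmt at -0.13 ± 0.04. Cfd, which encodes complement factor D and starts 2638 bp past Elane, was at 0.60 ± 0.26 (adjusted p = 0.118) and at a mean of 0.337 scaled CPM in LK WT. Near Ctsg, Mcpt8, 14608 bp away, was lower at -0.25 ± 0.06 and Gzmb, of the same protease cluster, was higher at 0.50 ± 0.16. Near Ms4a3, Ms4a2, 5777 bp away, was lower at -0.98 ± 0.16. In old Cd11b cells none of the 20 tested neighbours was called, where 0.336% of all genes tested were.

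Around the means of their cell sets, the 5 genes varied together when all libraries were pooled. Over the 19 libraries, centred on the mean of their set, the log2 level of each gene correlated with the mean of the other 4 at Pearson's r of 0.97 for Mpo, 0.96 for Prtn3, 0.95 for Elane, 0.94 for Ctsg and 0.89 for Ms4a3. These values are descriptions over libraries that share depth and genotype groups. Genotype differences were left in, and no correlation was computed for each set alone. Of the other genes listed in all sets at a mean of at least 1 scaled CPM, Cst7 (r = 0.97), Prss57 (0.97), Nkg7 (0.96), Ddx28 (0.95) and Rn45s (0.93) were most like the mean of the 5 in this measure. By the root mean square difference over the 6 group means, on the log2 scale, the nearest were Cst7 (0.077), Dmkn (0.12), Zfp593 (0.15), Ndrg2 (0.16) and Krt18 (0.17). Cst7 led both orders. Its mean levels were 38.2 and 34.3 scaled CPM in young WT and MT, 14.9 and 11.4 in old WT and MT and 106 and 135 in LK WT and MT, and it was called between LK genotypes (0.31 ± 0.08, adjusted p = 0.0204) and not between old Cd11b genotypes (-0.39 ± 0.11, adjusted p = 0.157).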

How the data were processed

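Counts per gene symbol, as the authors deposited them for 19 libraries, were the only values used. The labels' protocols name a column RNA kit and a directional library kit, and the submitters' processing notes name STAR, HTSeq, DESeq2 and mm10, with no version, setting or order. The 3 cell sets list their own genes, so comparisons across sets used genes listed in both. For each comparison the counts entered edgeR 4.0.16 and its quasi-likelihood F test (R 4.3.3, filterByExpr, TMM, robust dispersion) with Benjamini-Hochberg adjustment over all genes tested and a threshold of 0.05. Each of 7 comparisons was fitted on its own libraries. The SE is the log2 fold change divided by the square root of F. The fit was tested on simulated data. Alternatives were other size factors, no filter, DESeq2 1.42.0, a replicate block, a fit of all 19 libraries, removal of a length and GC trend (lengths found for 95.7% of symbols), summed replicates, a sex-linked covariate and leaving out each library. Library totals without factors and leaving out 2 young libraries together were added after seeing the data. Named genes are the 5, up to 4 called genes of each list by size, the locus neighbours, and the 5 most alike genes per measure. The genes and lists were chosen with earlier results of these data known. Counts of transposable elements were not used. A single gene of the granule contents list is counted but not reported by name here.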

Additional observations from a re-analysis of the deposited data

Results flagged for a closer look

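The genotype difference had opposite signs in LK and old Cd11b cells for each of the 5 genes. In the main fit the difference between the sets passed the interaction test. On the log2 scale, LK minus old Cd11b, this difference was 0.88 for Elane, 0.84 for Prtn3, 0.62 for Ctsg, 0.59 for Ms4a3 and 0.58 for Mpo. No young WT library stood apart from its group by Dixon's test in any of the 5 genes, and the groups of 3 were not tested.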

How the results depend on the processing

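The 5 of 5 higher calls of LK WT over old Cd11b WT held in number under all 14 alternatives, lower calls of old against young Cd11b WT were at least 4 of 5 under all 17 (5 of 5 in 5 of them, where Ms4a3 was called too), and the 0 of 5 of the age interaction held under all 23. For MT against WT in LK cells the number called was 0 with the replicate block, 2 in the fit of all 19 libraries, 1 with the length and GC trend removed, 0 with replicates 2 and 3 summed, and 0 to 5 when each library was left out in turn. In old Cd11b cells it was 4 with DESeq2, 3 with the length and GC trend removed (138 genes called in all), and 0 to 3 when each library was left out (0 to 1819 genes in all). In young Cd11b cells it was 2 without MT replicate 3 and WT replicate 4 together (69 genes called in all). For the interaction with cell type it was 3 in the fit of all 19 libraries and 0 with replicates 2 and 3 summed. The cause was not tested. The summed and leave-out fits also had fewer samples. Signs turned in 7 values that were not called in either fit. The age interaction of Mpo was 0.084 with the replicate block, 0.080 without both young libraries and from -0.16 to 0.087 when each library was left out. That of Ctsg was 0.014 with the replicate block and 0.018 without young WT replicate 4, and that of Elane was 0.023 without both young libraries. Ms4a3 in old against young WT cells was 0.11 with the sex-linked covariate.

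Replicate numbers were not taken as pairs, since deviations of same-numbered MT and WT libraries correlated at r from -0.24 to 0.28. The block left 3 genes called of 14113 in LK cells and 0 of the 5, and 5 of 5 in the interaction with cell type. Depth did not limit these genes: the lowest count of any of them in a library was 1837, for Ctsg in old MT.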
